A study of Mus musculus with 4 samples.

Results

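In both TAD lists of haematopoietic stem cells (HSCs), the gene Myc and its distal blood enhancer cluster lay inside the same topologically associating domain (TAD), with no boundary between them. This holds for the approximate positions used, with Myc only 35 kb (fetal) and 45 kb (adult) inside the start of the TAD. The TAD was 1850 kb long in fetal and in adult cells, and each of its ends differed between the lists by 10 kb, 1 step of the coordinate grid. The locus was examined through the TADs that overlap chromosome 15 from 61.0 to 64.5 Mb (mm9). By this choice, 3 of the 2318 TADs of the fetal list and 3 of the 2310 TADs of the adult list were members, with Myc as the gene described.

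Hi-C, which counts how often pieces of DNA meet in the fixed nucleus, was run on 2 fetal and 2 adult samples from mice of strain B6129SF1. The fetal cells came from the liver at embryonic day 14.5 and the adult cells from bone marrow at 6 to 8 weeks of age. Both were sorted as lineage-negative, Sca1+, cKit+ and CD135-, a gate that enriches stem cells but can also hold early multipotent progenitors. No genetic alteration or treatment is named for either group, and the labels do not say whether animals were pooled. The authors deposited 1 list per cell type, named by both of its samples, so no value here has a replicate error and nothing was tested between fetal and adult cells. How many contacts each list rests on is unknown, so the depth gives no precision for a boundary, and the lists hold no expression values with which to check the cell type.

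Myc encodes a transcription factor that drives cell growth, ribosome production and division, and in HSCs its level bears on the balance between self-renewal and differentiation. Its expression in blood stem and progenitor cells relies on a cluster of enhancer modules far downstream of the gene, known to contact the Myc promoter. TADs are stretches of a chromosome that contact themselves more than their neighbours. Their boundaries are often bound by CTCF and cohesin, and enhancers mostly act on promoters within their own TAD, so the comparison asks whether the gene and this enhancer cluster were placed in the same TAD in each cell type. The gene was taken at about 61.82 Mb and the enhancer cluster at about 63.5 Mb of chromosome 15, 1680 kb apart. Both positions are rounded, approximate values from general knowledge and were not measured here. A single position stood for the whole cluster, so whether each of its modules shared a TAD with Myc was not examined.

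In the fetal list, the TAD that held Myc was chr15:61785001-63635000. It also held the enhancer cluster, and the count of boundaries between the gene and the cluster was 0. In the adult list, the TAD that held Myc was chr15:61775001-63625000. It too held the enhancer cluster, again with 0 boundaries between. At the positions used, the gene and its enhancer cluster were thus not separated by a called boundary in either cell type.

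**Figure D1:**
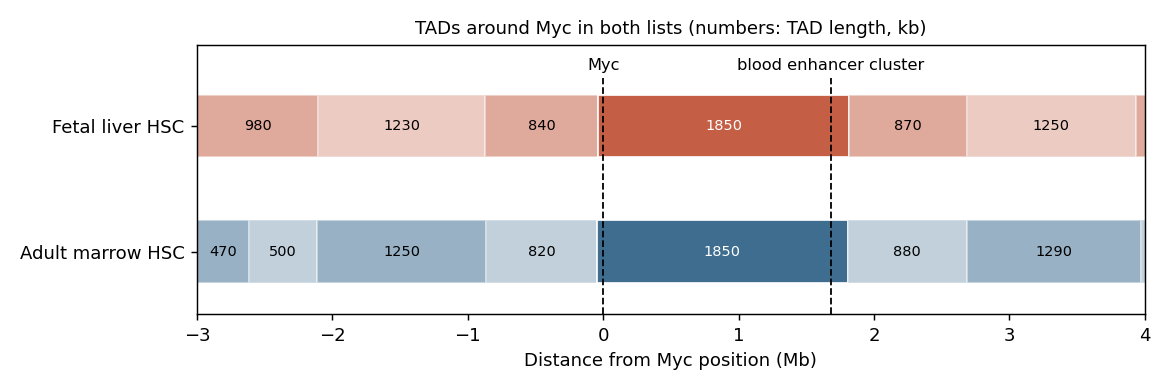
TADs of the fetal (upper row) and adult (lower row) list around Myc, drawn to scale against the distance from the Myc position in Mb; the number in each block is its length in kb, and the darkest block holds Myc. Dashed lines mark Myc and the blood enhancer cluster, which lie near opposite ends of a TAD of 1850 kb in both rows.

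The gene and the cluster lay near opposite ends of this TAD. Myc was 35 kb inside the start of the TAD in the fetal list and 45 kb inside it in the adult list. As a share of TAD length, the gene lay 1.89% of the way from the start in fetal and 2.43% in adult cells. The enhancer cluster lay 135 kb before the end of the TAD in fetal cells and 125 kb before it in adult cells. That placed it 92.7% and 93.2% of the way along. The boundary upstream of Myc was therefore nearer to the gene than the downstream boundary was to the enhancer cluster, in both lists.

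The margin at Myc was 3.5 grid steps in fetal and 4.5 in adult cells. The fetal margin of 35 kb was smaller than 40 kb, the distance within which boundaries of the lists are counted as shared below. A different placement of the boundary could thus also put Myc in the upstream TAD. A gene position more than 35 kb lower would fall in the upstream TAD of the fetal list, and one more than 45 kb lower in that of the adult list. With the Myc position moved down by 50 kb, 1 boundary separated gene and cluster in each list. Moving the position of the enhancer cluster by 100 kb either way left 0 boundaries between them in both lists.

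The interval common to both TADs ran over chr15:61785001-63625000, or 1840 kb, which was 98.9% of the 1860 kb covered by either. Downstream of Myc it reached 1805 kb, and upstream it reached 35 kb. Any element up to 1805 kb downstream of the Myc position shared a TAD with it in both lists, while the sequence more than 45 kb upstream lay in another TAD in both.

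The boundaries of the region were then set side by side. The upstream edge of the TAD before Myc was at 60945000 in fetal and 60955000 in adult cells, so the adult edge was 10 kb higher. The boundary between that TAD and the TAD of Myc was at 61785000 in fetal and 61775000 in adult cells, with the adult position 10 kb lower. The boundary beyond the enhancer cluster was at 63635000 in fetal and 63625000 in adult cells, again with the adult position 10 kb lower. The far edge of the downstream TAD was at 64505000 in both lists. The offsets had no common direction, and none exceeded 1 grid step.

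All 4 boundaries of the window in each list had a boundary of the other list within 40 kb, and 1 of the 4 was identical. Over all chromosomes, 83.4% of the 2393 boundaries in fetal cells (95% exact Clopper-Pearson interval 81.9 to 84.9) and 83.5% of the 2391 in adult cells (81.9 to 84.9) had such a partner. On chromosome 15 such partners were found for 87.9% of the 99 fetal ones (79.8 to 93.6) and for 91.6% of the 95 adult ones (84.1 to 96.3). Within 10 kb, the distance that took in all 4 boundaries here, the shares over all chromosomes were 63.6% (61.7 to 65.6) and 63.7% (61.7 to 65.6). The window holds too few boundaries for 4 of 4 to be set apart from these backgrounds. The intervals treat boundaries as independent and cover counting error only.

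**Figure D2:**
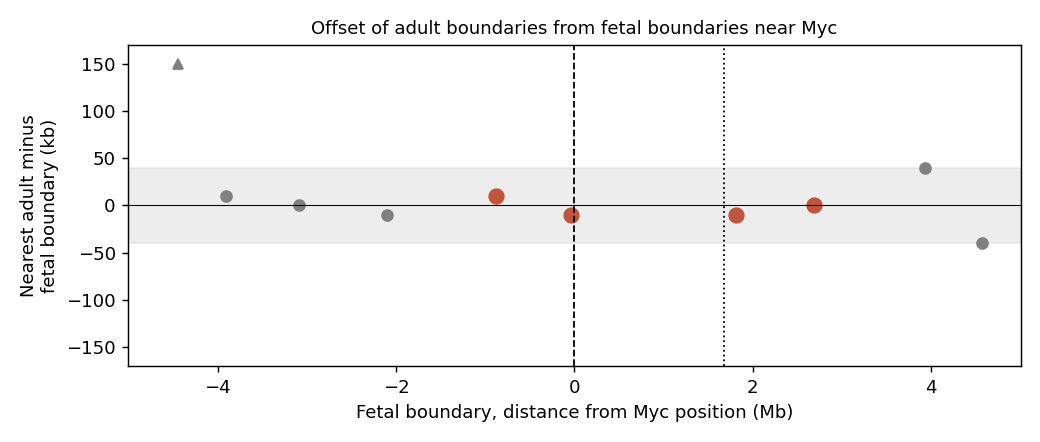
Each point is a boundary of the fetal list, placed on the horizontal axis by its distance from Myc in Mb and on the vertical axis by the nearest adult boundary minus the fetal one in kb; coloured points are the 4 edges of the window's TADs, the grey band spans 40 kb either way, the dashed line marks Myc and the dotted line the enhancer cluster. The coloured points lie between -10 and 10 kb, and the triangle stands for an offset of 550 kb that exceeds the axis.

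The other members were the TADs on either side. The upstream neighbour, chr15:60945001-61785000, was 840 kb long in the fetal list, and its adult counterpart, chr15:60955001-61775000, was 820 kb long. The downstream neighbour, chr15:63635001-64505000, was 870 kb long in the fetal list, and its adult counterpart, chr15:63625001-64505000, was 880 kb long. The neighbours differed in length by 20 and 10 kb, and the TAD of Myc by 0 kb. Overlap with the counterpart was 97.6% of the longer TAD for the upstream neighbour, 99.5% for the TAD of Myc and 98.9% for the downstream neighbour. All 3 TADs of each list therefore had a counterpart at a reciprocal overlap of 80%. Over all chromosomes, 73.4% of fetal TADs (71.6 to 75.2) and 73.7% of adult TADs (71.8 to 75.5) had one, so 3 of 3 is again too few to stand apart from the background.

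The TAD of Myc was long for these lists. A TAD that holds both positions must span the 1680 kb between them, so a high rank in length follows from the shared TAD. Only 17.6% of fetal and 15.8% of adult TADs reached 1500 kb. The TAD of Myc was longer than 89.0% of fetal TADs, with rank 251 of 2318 from the longest, and longer than 89.7% of adult TADs, with rank 234 of 2310. On chromosome 15 it ranked 5 of 96 fetal and 8 of 93 adult TADs. The medians over all TADs were 790 kb (fetal) and 760 kb (adult). The flanking TADs were near the middle of the distribution, longer than 53.3% and 55.1% of fetal TADs and 54.5% and 59.0% of adult TADs.

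**Figure D3:**
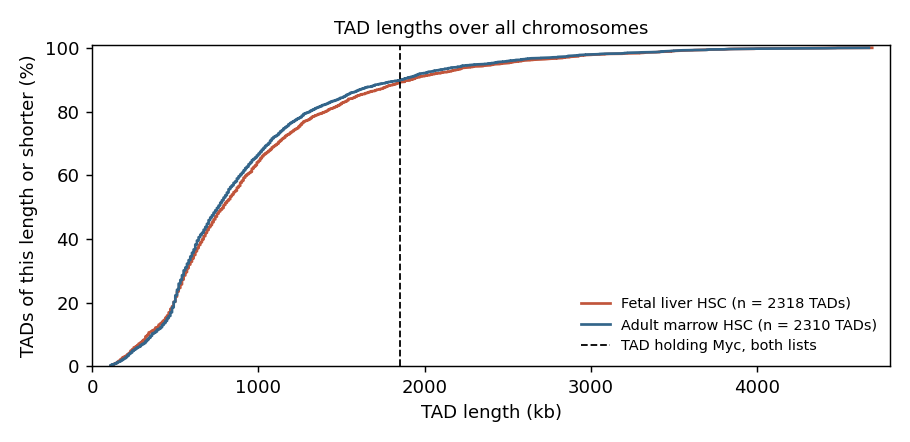
Cumulative share of TADs, in percent, by length in kb over all chromosomes of the fetal (2318 TADs) and adult (2310 TADs) list. The dashed line marks the 1850 kb of the TAD that holds Myc, which was longer than 89.0% of fetal and 89.7% of adult TADs.

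Few pairs of positions so far apart share a TAD. Over all positions at 10 kb steps that lay in a TAD of both lists, 204838 pairs were 1680 kb apart, the distance from Myc to the enhancer cluster. Of these pairs, 9.37% lay in 1 TAD in fetal and 9.60% in adult cells. On chromosome 15 alone the shares were lower, 6.45% and 7.58%. Sharing in one cell type mostly went with sharing in the other. Of the pairs in 1 TAD in fetal cells, 80.7% were also in 1 TAD in adult cells, and of those in 1 TAD in adult cells, 78.8% were so in fetal cells. Over all these pairs, 7.56% shared a TAD in both lists, and Myc and its enhancer cluster belonged to them. Neighbouring pairs overlap, so these shares are a description and carry no test.

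**Figure D4:**
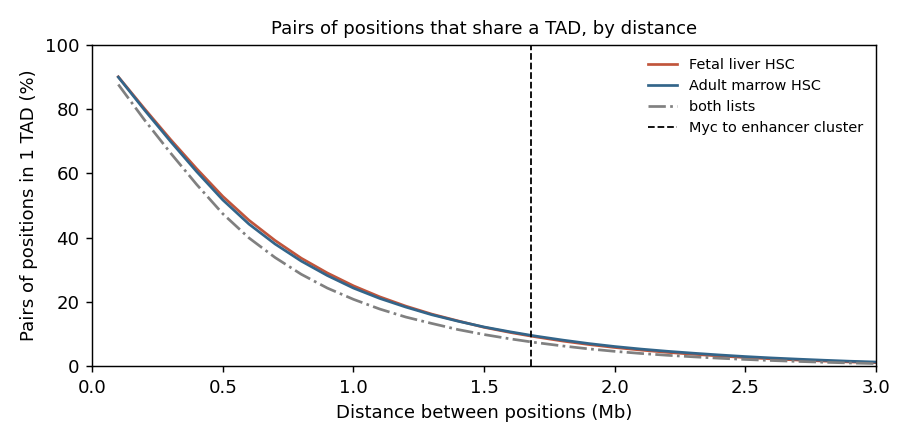
Share of pairs of positions that lie in 1 TAD, in percent, against the distance between them in Mb, for the fetal list, the adult list and both lists at the same time. At the dashed line, the distance from Myc to the enhancer cluster, the share is 9.37% (fetal list), 9.60% (adult list) and 7.56% (both).

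The TAD of Myc was also set beside other long TADs. Among TADs of at least 1500 kb, a limit chosen after the length of the Myc TAD was known, 27.9% of 409 in the fetal list (23.6 to 32.5) held an adult boundary more than 40 kb from both ends. In the adult list, 26.4% of 364 such TADs (21.9 to 31.2) held a fetal one. The TAD of Myc held none in either direction. Both its ends lay within 10 kb of those of its counterpart, as in 33.7% of the long fetal TADs (29.2 to 38.6) and 38.2% of the long adult TADs (33.2 to 43.4). Over TADs of any length the shares were 38.8% (36.8 to 40.8) and 39.0% (37.0 to 41.0). Equal length with both ends moved together, as at Myc, was found for 147 of 1702 fetal TADs with a counterpart, or 8.64%, and equal length with or without a move for 352, or 20.7%.

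Boundaries beyond the window were followed until the first without a partner. Counted outward from the TAD of Myc, 12 consecutive fetal boundaries, from 57915000 to 69775000, each had an adult partner within 40 kb. In the adult list the run was 11 boundaries, from 59705000 to 71735000. Since 87.9% of fetal and 91.6% of adult boundaries on chromosome 15 had such a partner, nothing particular to this stretch is read from these runs. The nearest boundary without a partner was an adult one at 59205000, 2.615 Mb before Myc. There a fetal TAD of 980 kb, chr15:58735001-59715000, lay over adult TADs of 470 and 500 kb. The nearest fetal boundary without a partner was at 57375000, 4.445 Mb before Myc. After Myc, the first boundaries without a partner were 9.425 Mb away in the fetal list and 10.535 Mb away in the adult list.

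Offsets within that run varied from boundary to boundary. The boundary after the next TAD was at 65755000 in the fetal and 65795000 in the adult list, and the one after it at 66385000 and 66345000, offsets of 40 kb in opposite directions. The TAD between them was 630 kb long in fetal and 550 kb in adult cells, with an overlap of 87.3% of the longer. These offsets equal the tolerance, so neither boundary would count as shared within 20 kb, while the boundaries around Myc would. Farther on, the boundaries at 68225000 and 68735000 were identical in both lists, and the fetal boundary at 69775000 lay 20 kb from the adult one at 69795000.

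The genes next to Myc are given by name and order, since the gene table at hand is of GRCm38 and not of the build of the lists. After Myc came Pvt1, a long non-coding RNA gene, and then Gsdmc, Gsdmc2, Gsdmc3 and Gsdmc4, of the gasdermin family, whose members can form membrane pores. Before Myc, going outward, came A1bg, which encodes a plasma glycoprotein, Lratd2, Trib1, a pseudokinase gene that regulates protein turnover in blood cells, Nsmce2, a SUMO ligase gene of the SMC5/6 complex, and Washc5, a subunit gene of the WASH complex. Which of these genes lay in the TAD of Myc was not analysed here.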

How the data were processed

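Per the labels, Hi-C was run on 2 fetal liver and 2 adult bone marrow HSC samples. The authors deposited 1 TAD list per cell type, as a chromosome, start and end in base pairs, without a score. The submitters' processing notes name HiC-Pro, GSNAP and mm9. The TAD caller, its settings and any pooling of samples could each move boundaries, and are not stated in the sources used.

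The members were taken by a fixed window, and the positions of Myc and its enhancer cluster as approximate mm9 values from general knowledge. Both, and the comparisons, were chosen with earlier results of these data known. Coordinates are 1-based, and a boundary is the last base of the TAD before it. Positions fell every 10 kb, starting from 5 kb, except for 10 per list. A boundary was shared when one of the other list lay within 40 kb, a TAD when reciprocal overlap reached 80%. Comparisons with long TADs, equal lengths and runs of boundaries were chosen after seeing the data. Named genes were Myc and the 5 nearest on each side in the RefSeq table of GRCm38, protein-coding or lncRNA, without provisional symbols (Gm, LOC, Rik and clone names). No sequence is printed. Python 3.11.15, numpy 2.4.6, scipy 1.17.1 and matplotlib 3.10.9 were used. The functions that count shared boundaries and pairs of positions were tested with a simulated list. Those that match TADs or count boundaries between Myc and the enhancer cluster were not. No tests between cell types were made, as there was 1 list each.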

Additional observations from a re-analysis of the deposited data

How the results depend on the processing

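Of 40 alternative values, 28 kept the value or stayed within its 95% exact interval and 12 moved. The intervals for the few window boundaries and TADs are wide, so few values could leave them. Those for the pairs of positions are narrow and treat overlapping pairs as independent, so small changes leave them. The split therefore depends in part on interval width and is no measure of stability. With the Myc position 50 kb lower, the count of boundaries between gene and enhancer cluster was 1 in each list, and the TAD holding that position measured 840 kb (fetal) and 820 kb (adult). At identical positions, 25.0% of the 4 window boundaries were shared in each list. Pairs of positions in 1 TAD were 6.45% fetal and 7.58% adult on chromosome 15, 12.5% and 12.6% at a distance 200 kb shorter, and 6.96% and 7.26% at one 200 kb longer. A tolerance of 20 kb, a window 500 kb wider on each side and an overlap of 90% left all window boundaries and TADs shared. A tolerance of 100 kb and an overlap of 50% gave the same, but are looser than the main settings and could not lower these shares. The window 500 kb narrower on each side took in the same TADs, so it only repeated the main value. No paired analysis was possible because each cell type has 1 list for both its samples, and no replicate could be left out. The unknown depth limits every comparison of boundaries.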
